A study of Mus musculus with 7 samples.

Results

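The genes that copy DNA in S phase and the genes that divide the cell in mitosis were examined in mouse liver, 48 genes of the 51826 in the count table. They were chosen by symbol, 25 for DNA replication and 23 for mitosis, and their counts were taken in all 7 libraries. The study sequenced liver RNA of untreated male C57BL/6J mice aged 6 months, 3 wild type (WT) and 4 homozygous for the Sprtn Y118C knock-in allele (KI, Sprtn Y118C/Y118C). Sprtn encodes a DNA-dependent protease that removes proteins crosslinked to DNA, so the comparison bears on whether a liver with altered Sprtn expresses the machinery of DNA replication and cell division at another level. The allele is present in every cell of the animal. The labels do not say whether a library came from 1 animal or from several, nor whether the genotypes shared litters, so each library was treated as 1 animal and the p-values measure the spread between these libraries.

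Replication starts when CDC6 and CDT1 load the MCM2-7 helicase ring onto origins in G1, and cyclin E with its kinase helps to fire them. CDC45 and the GINS complex then switch the helicase on, and DNA polymerases, the sliding clamp PCNA and the nucleotide-making enzymes carry the fork forward. Mitosis is driven later by cyclin B with CDK1, by the Polo-like and Aurora kinases and by spindle motors, and it ends when the anaphase-promoting complex marks cyclins and securin for destruction. E2F factors activate the replication genes at the entry into S phase, and B-MYB, FOXM1 and the MuvB complex activate the mitosis genes later. In the adult liver most hepatocytes rest outside the cell cycle, and many become polyploid by copying DNA without completing division.

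Total counts ran from 36928472 to 46755357 per library. Of these, the replication members drew 4883 to 6055 counts per library and the mitosis members 463 to 680. Summed hepatocyte markers stood at 62666 to 84880 CPM (counts scaled to an equal library size) in the 7 libraries, as the most abundant of the cell type lists followed here. KI replicate 1 held skeletal muscle transcripts, with 71.0 CPM summed over 6 muscle markers against 0.472 to 1.20 CPM in the other libraries. WT replicate 1 also stood apart, since edgeR's quasi-likelihood test called 5 genes with all libraries and 98 without that one. Sprtn mRNA had a log2 difference of 0.18 (edgeR adjusted p = 0.588), which does not check a point mutation. In bulk tissue, fewer cells of a type and less RNA per cell cannot be told apart, and this holds for every value that follows.

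Replication transcripts were far more abundant than mitosis transcripts in both genotypes. On the deposited TPM scale, which corrects transcript counts for length and library size, the median WT level was 1.76 TPM over the replication members and 0.220 TPM over the mitosis members, a ratio of 7.98. Pcna, the sliding clamp that holds polymerases on DNA, led at 26.8 TPM in WT, followed by the thymidine kinase Tk1 at 8.55 TPM and the helicase subunit Mcm7 at 5.07 TPM. Only Pcna and Tk1 lay above the median of all genes tested, 5.07 TPM, and 16 of 25 replication members reached 1 TPM in WT. Among the mitosis members only the kinase Aurka did, at 1.41 TPM. Cdc20, which activates the anaphase-promoting complex, followed at 0.840 TPM, and Cdk1 stood at 0.546 TPM. Cenpf, a kinetochore protein, was lowest at 0.0323 TPM. Counts of single mitosis members ranged from 1 to 90 per library, and those of replication members from 4 to 1674.

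**Figure D1:**
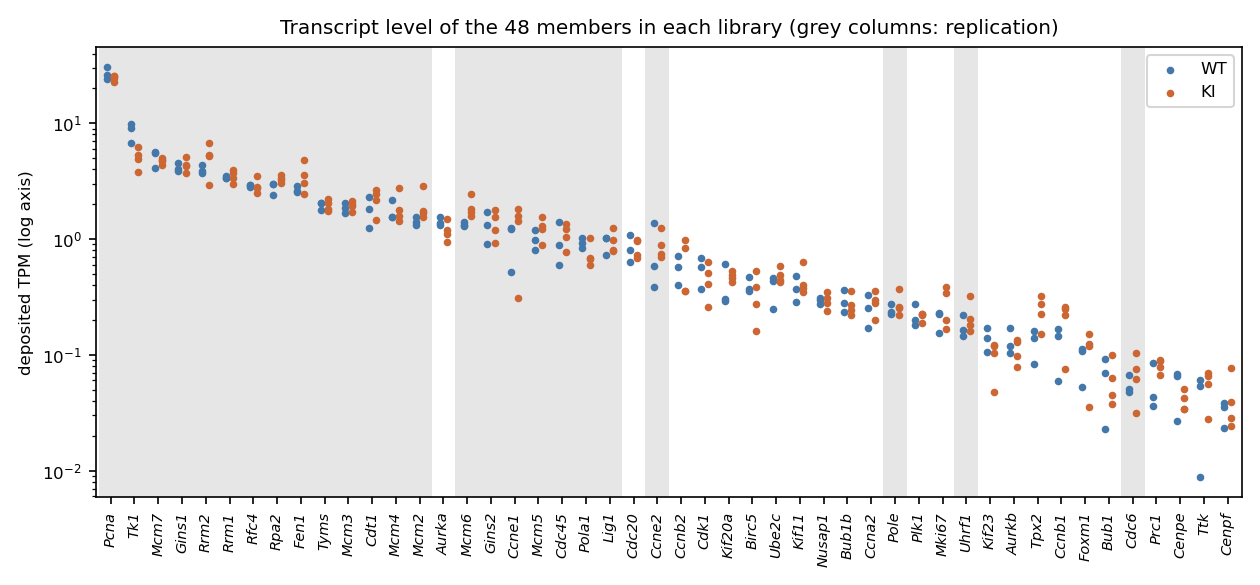
Deposited TPM of each of the 48 genes (log axis) in every library, ordered by level, with WT in blue, KI in orange and replication members on grey. Pcna stands highest, and 22 of the 23 mitosis members have a WT mean below 1 TPM, as do 9 of the 25 replication members.

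Promoters were searched for the elements that are known to time such genes in the cell cycle. RefSeq promoters (build GRCm38.p6) were found for 38 of the 48 genes, and the 250 bases before each start were searched on both strands. The cell cycle genes homology region (CHR), which the MuvB complex binds, was searched as TTTGAA and TTCGAA. The CCAAT box, which NF-Y binds, was searched as CCAAT, and E2F sites as TTTCCCGC, TTTGGCGC, TTTGCCGC and TTTCGCGC. Shares are of genes with a promoter, and a gene was counted where any of its promoters matched. An E2F match stood in 6 of 20 replication members (30.0%) and in 1 of 18 mitosis members (5.56%), Cdk1. Of all 27025 genes with a promoter, 2.16% had one. A CHR match and a CCAAT match in the same promoter stood in 8 of 18 mitosis members (44.4%) and in 3 of 20 replication members (15.0%). This held for 7.0% of all genes with a promoter. A CCAAT match, with or without CHR, stood in 16 of 18 mitosis and 12 of 20 replication members, against 37.5% of all genes with a promoter. A match describes letters and is not shown to be a bound site, and some matches overlap, as where E2F letters on both strands share bases.

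The stretches below hold the 160 bases before the start, on the strand of the gene, with matched letters in capitals. The helicase subunits Mcm2 (chr6:88898781-88898940, minus strand), Mcm5 (chr8:75109349-75109508, plus strand) and Mcm6 (chr1:128359706-128359865, minus strand) are shown because Mcm2 and Mcm6 lead the values below and Mcm5 is a partner in the same ring. The cyclin Ccnb2 (chr9:70421555-70421714, minus strand) and the proliferation antigen Mki67 (chr7:135716380-135716539, minus strand) stand for the mitosis members, and Ccnb2 was chosen after its values were seen. Within these 160 bases, capitals mark E2F and CCAAT letters in Mcm5 and Mcm6 and a single CHR match in Mcm2. In Ccnb2 they mark CCAAT boxes, and in Mki67 a CCAAT box with 2 CHR matches. The search reached further from the start than the printed stretches. In the part not printed, Mcm2 also had a CCAAT match, 171 to 175 bases before the start. Ccnb2 had a CHR match there, 162 to 167 bases before the start, and Mki67 had further CCAAT matches.
Mcm2: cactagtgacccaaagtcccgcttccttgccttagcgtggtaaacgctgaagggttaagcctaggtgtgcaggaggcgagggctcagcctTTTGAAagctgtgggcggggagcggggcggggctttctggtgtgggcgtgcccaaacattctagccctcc
Mcm5: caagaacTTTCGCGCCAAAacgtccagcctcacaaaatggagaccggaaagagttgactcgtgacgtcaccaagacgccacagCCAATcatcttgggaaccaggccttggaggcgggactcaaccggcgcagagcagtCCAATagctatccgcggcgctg
Mcm6: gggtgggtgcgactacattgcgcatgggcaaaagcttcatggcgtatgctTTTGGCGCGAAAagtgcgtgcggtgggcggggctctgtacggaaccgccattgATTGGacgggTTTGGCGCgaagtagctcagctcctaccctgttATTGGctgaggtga
Ccnb2: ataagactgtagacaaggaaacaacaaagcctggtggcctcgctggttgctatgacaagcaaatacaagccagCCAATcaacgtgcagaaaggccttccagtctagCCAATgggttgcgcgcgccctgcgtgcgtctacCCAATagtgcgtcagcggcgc
Mki67: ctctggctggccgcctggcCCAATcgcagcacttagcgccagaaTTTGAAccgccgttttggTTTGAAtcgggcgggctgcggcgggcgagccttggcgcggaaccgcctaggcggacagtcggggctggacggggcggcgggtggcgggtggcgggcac

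No member passed the threshold between the genotypes. The edgeR quasi-likelihood test called 0 of the 24 replication members and 0 of the 18 mitosis members that passed its expression filter, at an adjusted p under 0.05, where 0.0357% of all 13989 genes tested were called. At an unadjusted p under 0.05, 3 replication members were higher (Mcm6, Rpa2 and Mcm2) and 1 was lower (Tk1), and 1 mitosis member was higher (Tpx2). Of all genes tested, 5.6% were higher and 4.97% lower at that unadjusted level. DESeq2 and limma-voom also called 0 members, where they called 1.36% and 0.05% of their genes, and so did edgeR without an expression filter, where it called 0.0856%. The authors' deposited table held 1 member at its corrected threshold, Tk1, with a log2 fold change of -0.73 and a corrected p of 0.0417, where 0.633% of its genes passed and 0.195% passed as lower. The 6 genes Cdc6, Aurkb, Bub1, Cenpe, Cenpf and Ttk did not pass the filter, and without it their adjusted p ran from 0.814 to 0.987 in edgeR.

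Most estimates lay slightly above 0. Log2 differences were positive in 20 of 24 replication members, with a median of 0.14, and in 12 of 18 mitosis members, with a median of 0.20, while 50.1% of all genes tested were positive and their median was 0.0007. The mitosis median was 0.0060 without WT replicate 3, and -0.24 over the 3 mitosis members that reached 1 CPM in at least 3 libraries. With no expression filter, 21 of 25 and 14 of 23 were positive. Members share libraries and are not replicates, so these counts carry no test. The median standard error (SE) of a log2 difference was 0.21 for replication members and 0.33 for mitosis members, against 0.15 for all genes. The 95% interval of the typical replication member therefore reached 0.47 to each side on the log2 scale (1.39-fold), and that of the typical mitosis member 0.76 (1.69-fold).

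**Figure D2:**
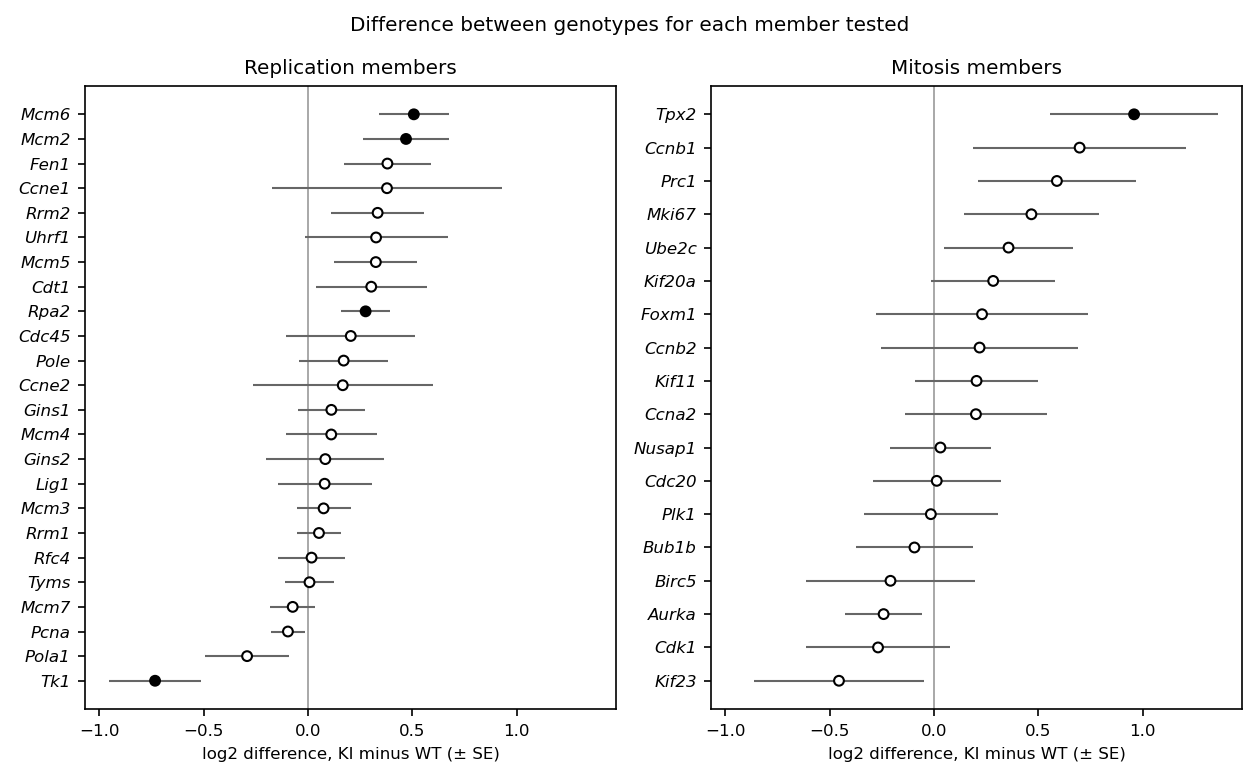
Log2 difference of KI minus WT with its SE for the 24 replication members (left) and 18 mitosis members (right) tested by edgeR, filled where the unadjusted p was under 0.05. Estimates run from -0.73 (Tk1) to 0.51 (Mcm6) on the left and from -0.46 (Kif23) to 0.96 (Tpx2) on the right, and none passed the adjusted threshold.

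Among the licensing genes, the helicase subunits Mcm6 and Mcm2 had every KI library above every WT library. Mcm6 (chromosome 1, 128331590 to 128359664, mm10) had 3.24, 3.10 and 3.16 CPM in WT and 4.02, 4.06, 4.11 and 5.81 CPM in KI. The WT libraries lay close together and KI replicate 4 lay above the rest. The log2 difference was 0.51 ± 0.17 (SE, edgeR adjusted p = 0.352), and without KI replicate 4 it was 0.36 (adjusted p = 0.421). Mcm2 (chromosome 6, 88883474 to 88898780) had 3.00, 3.07 and 2.54 CPM in WT and 3.35, 5.51, 3.45 and 3.60 CPM in KI. Here KI replicate 2 stood highest, and the other KI libraries lay just over the WT range. The log2 difference of Mcm2 was 0.47 ± 0.21 (SE, edgeR adjusted p = 0.472), and it was 0.28 without KI replicate 2 (adjusted p = 0.640). In all, 3 replication members (with Rpa2) and 0 mitosis members had all KI libraries above WT, and 0 members had them all below, against 5.48% and 5.46% of all genes tested.

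The other licensing genes overlapped between genotypes. Mcm5 had 1.71, 1.95 and 2.31 CPM in WT and 1.92, 2.96, 2.48 and 2.64 CPM in KI, a log2 difference of 0.33 (edgeR adjusted p = 0.579). Mcm3 and Mcm4 had log2 differences of 0.08 and 0.11, and Mcm7, the most abundant subunit, had -0.07. The ring is built of equal numbers of the subunits MCM2 to MCM7, and their transcripts summed to 12.5 ± 1.41 TPM in WT (SD, n = 3) and 13.6 ± 1.82 TPM in KI (SD, n = 4). Cdt1, the loading factor that is destroyed once S phase begins, had 3.07, 3.59 and 1.87 CPM in WT and 3.73, 4.01, 3.93 and 2.35 CPM in KI. The lowest library of each genotype, WT replicate 3 and KI replicate 4, stood clear of its fellows, and the log2 difference was 0.30 ± 0.27 (SE, edgeR adjusted p = 0.705). With 1 library left out it ran from 0.073 (without WT replicate 3) to 0.51 (without WT replicate 2). Cdc6, its partner in loading, stayed between 0.0883 and 0.262 CPM. The helicase activators Cdc45, Gins1 and Gins2 had log2 differences of 0.21, 0.11 and 0.08. Gins2 shares 67.3% of its exonic bases with Gse1 on the opposite strand, which had 6.80 to 18.3 CPM, so its counts are uncertain.

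At the fork, Rpa2 had every KI library above every WT library. Rpa2 (chromosome 4, 132768332 to 132778752) encodes a subunit of the complex that coats single-stranded DNA, and it had 3.86, 4.47 and 4.24 CPM in WT and 5.21, 5.17, 5.22 and 4.71 CPM in KI. The margin was narrow for KI replicate 4. The log2 difference was 0.28 ± 0.12 (SE, edgeR adjusted p = 0.460). The other subunits of the complex, which were not members, did not share 1 direction. Rpa1 had a log2 difference of 0.20, and Rpa3 one of -0.30 (edgeR adjusted p = 0.376), with 7.41 to 7.67 CPM in WT and 5.80 to 6.80 CPM in KI, so that each KI library lay below each WT library.

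The clamp and the other fork enzymes varied around WT. Pcna (chromosome 2, 132249162 to 132253314) had 31.4, 31.0 and 34.8 CPM in WT and 32.0, 29.6, 28.1 and 31.7 CPM in KI. The genotypes overlapped, and the 95% interval of its log2 difference of -0.10 ran from -0.28 to 0.09, the narrowest among the replication members. Fen1, the nuclease that trims Okazaki fragments, had 3.71, 3.17 and 2.95 CPM in WT and 4.02, 5.56, 4.49 and 3.04 CPM in KI (log2 difference 0.38, edgeR adjusted p = 0.541). It shares 78.8% of its exonic bases with the opposite-strand gene Gm10143, which had 0 to 0.118 CPM. Pola1, the catalytic subunit of the polymerase that primes each fragment, had 4.00, 4.49 and 3.93 CPM in WT and 3.27, 2.54, 3.07 and 4.64 CPM in KI. KI replicate 4 was above all WT libraries and the other KI libraries were below them, with a log2 difference of -0.29 (edgeR adjusted p = 0.623). The leading-strand polymerase Pole, the ligase Lig1 and the clamp loader Rfc4 had log2 differences of 0.17, 0.08 and 0.02, and Uhrf1, which copies DNA methylation behind the fork, had 0.33.

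Of the enzymes that supply nucleotides, Tk1 had the smallest p of all members and the opposite direction to most. Tk1 (chromosome 11, 117815526 to 117826092) encodes the cytosolic thymidine kinase of the salvage pathway. It had 27.5, 23.4 and 16.8 CPM in WT and 17.5, 9.44, 14.3 and 13.04 CPM in KI. KI replicate 1 lay just above WT replicate 3, so the genotypes overlapped, and the WT libraries themselves spread widely. The mean was 22.6 ± 5.39 CPM in WT (SD, n = 3) and 13.6 ± 3.34 CPM in KI (SD, n = 4), a log2 difference of -0.73 ± 0.22 (SE) and a 95% interval from -1.23 to -0.23. It did not pass in edgeR (adjusted p = 0.334) or in DESeq2 (adjusted p = 0.0920).

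The gene beside Tk1 on the opposite strand was also lower in KI, at an unadjusted p. Afmid, which encodes an enzyme of tryptophan breakdown, starts 95 bases from the Tk1 start in RefSeq, head to head with it, and it was chosen after its values were seen. It had 108, 124 and 134 CPM in WT and 105, 85.9, 91.8 and 92.1 CPM in KI. Every KI library lay below every WT library, with a log2 difference of -0.38 ± 0.10 (SE; edgeR adjusted p = 0.283). The library order differed, since WT replicate 1 was the highest WT library for Tk1 and the lowest for Afmid. The genes share 83 exonic bases, 1.597% of those of Tk1, and because the library kit did not mark strand, reads there cannot be assigned to either gene. The mitochondrial thymidine kinase Tk2 had 16.3 to 18.3 CPM in WT and 16.1 to 17.5 CPM in KI.

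The remaining nucleotide enzymes differed less. Rrm2, the regulated subunit of ribonucleotide reductase, had 6.45, 5.39 and 4.93 CPM in WT and 4.44, 8.92, 7.50 and 7.37 CPM in KI. The KI libraries held both the lowest and the highest values of the 7, and the log2 difference was 0.33 ± 0.22 (SE, edgeR adjusted p = 0.611). Its partner Rrm1 had 8.68 ± 0.648 CPM in WT and 9.002 ± 0.708 CPM in KI. Tyms, which makes thymidylate anew, had 6.05 ± 0.212 CPM in WT and 6.09 ± 0.591 CPM in KI, a log2 difference of 0.01 with a 95% interval from -0.26 to 0.27.

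**Figure D3:**
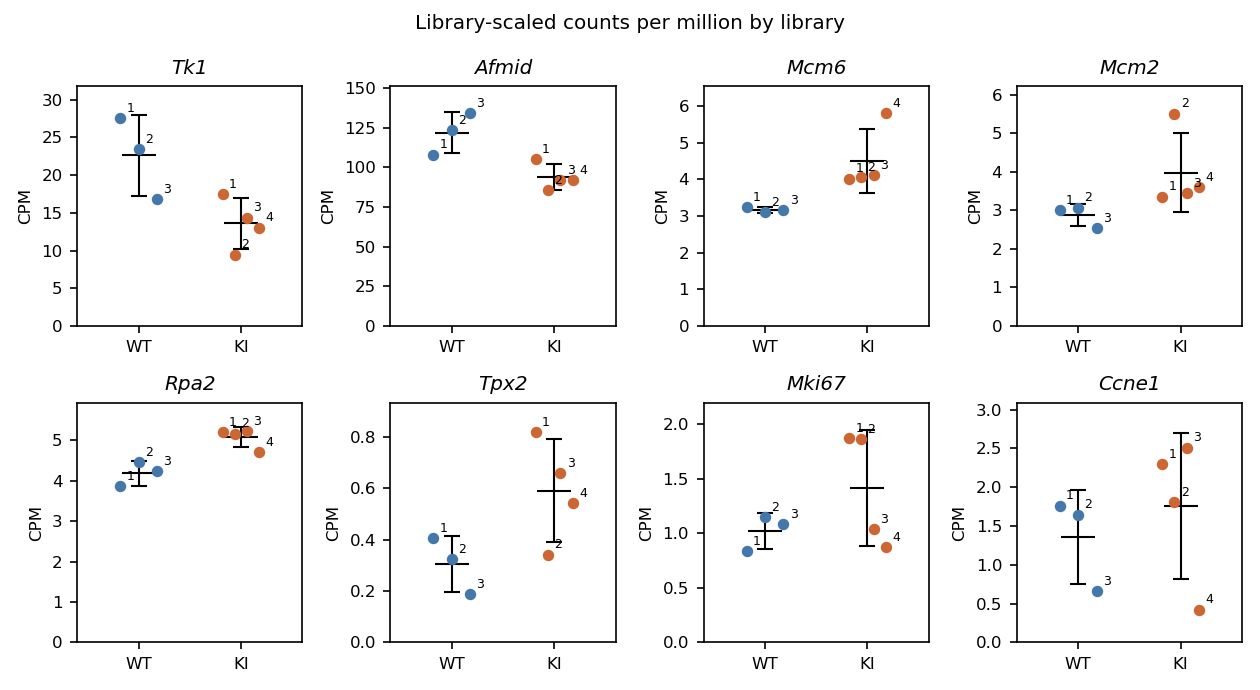
CPM of 8 genes in every library, WT in blue and KI in orange, with replicate numbers, the mean (long bar) and the SD (short bars). KI lies wholly above WT for Mcm6, Mcm2 and Rpa2 and wholly below it for Afmid, while the genotypes overlap for Tk1, Tpx2, Mki67 and Ccne1.

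The cyclins that open S phase varied widely within each genotype. Ccne1 had 1.76, 1.65 and 0.665 CPM in WT and 2.29, 1.81, 2.51 and 0.424 CPM in KI. As for Cdt1, WT replicate 3 and KI replicate 4 were the low libraries of their genotypes, and the log2 difference of 0.38 had an SE of 0.55 (edgeR adjusted p = 0.832). With 1 library left out it ran from 0.045 (without WT replicate 3) to 0.71 (without KI replicate 4). Ccne2 had 2.60, 0.674 and 0.977 CPM in WT and 1.68, 2.07, 1.27 and 1.34 CPM in KI. WT replicate 1 lay above all KI libraries and the other WT libraries below them. The log2 difference was 0.17 with all libraries (edgeR adjusted p = 0.917), 0.93 without WT replicate 1 (adjusted p = 0.224) and -0.16 without WT replicate 2. Its size thus turned on WT replicate 1, and its sign on WT replicate 2 or WT replicate 3 (-0.044 without the latter). Of the exonic bases of Ccne2, 17.4% are shared with Ints8 on the opposite strand.

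The spread within a genotype was compared with counting error by a chi-square over its degrees of freedom, which is 1 when counting alone sets the spread. Its median was 4.13 for replication members and 1.67 for mitosis members. It was over 10 in 5 replication members, with 43.8 in Tk1, 17.7 in Ccne1, 15.0 in Rrm2, 14.8 in Ccne2 and 10.3 in Gins2. In 13 of 23 mitosis members it was under 2. This measure grows with the number of counts, and it does not rank the genes by how much their transcripts vary.

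Among the mitosis genes, the spindle microtubule binders held the highest and the lowest estimate. Tpx2 (chromosome 2, 152847964 to 152895321), which activates Aurora A on the spindle, had 17, 13 and 9 counts in WT and 37, 13, 26 and 23 counts in KI. Scaled by library this was 0.405, 0.325 and 0.187 CPM in WT and 0.816, 0.341, 0.659 and 0.541 CPM in KI. KI replicate 2 lay within the WT range and the other KI libraries above it. The log2 difference was 0.96 ± 0.40 (SE, edgeR adjusted p = 0.455), and 0.76 without KI replicate 1 (adjusted p = 0.607). Prc1, which bundles the microtubules of the midzone, had 8, 6 and 16 counts in WT and 18, 10, 15 and 14 counts in KI (log2 difference 0.59, edgeR adjusted p = 0.591). The midzone motor Kif23 had 22, 16 and 14 counts in WT and 17, 5, 12 and 15 counts in KI, a log2 difference of -0.46 (edgeR adjusted p = 0.712). The motor Kif20a stood at 0.757 ± 0.299 CPM in WT and 0.927 ± 0.120 CPM in KI, and 29.3% of its exonic bases are shared with Cdc23 on the opposite strand.

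The marker of cycling cells Mki67 split the KI libraries. Mki67 (chromosome 7, 135689784 to 135716361) had 0.833, 1.15 and 1.081 CPM in WT and 1.88, 1.86, 1.04 and 0.871 CPM in KI. KI replicates 1 and 2 stood above all WT libraries and KI replicates 3 and 4 within their range, with a log2 difference of 0.47 ± 0.32 (SE, edgeR adjusted p = 0.621). Top2a, a decatenating topoisomerase of the same phase that was no member, had 0.974 to 1.25 CPM in WT and 0.887 to 1.36 CPM in KI, and its KI libraries 1 and 2 lay on different sides of its mean. Its log2 difference was -0.05.

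The engine of mitosis, cyclin B with CDK1, had estimates on both sides of 0. Ccnb1 had 16, 5 and 14 counts in WT and 27, 19, 19 and 7 counts in KI. KI replicate 4 lay among the WT libraries and the other KI libraries lay above them, with a log2 difference of 0.70 ± 0.51 (SE, edgeR adjusted p = 0.643). Ccnb2 had 20, 22 and 14 counts in WT and 37, 10, 26 and 12 counts in KI, with KI libraries on both sides of WT (log2 difference 0.22). Cdk1, the kinase partner, had 77, 57 and 42 counts in WT and 50, 46, 63 and 28 counts in KI. WT replicate 1 was highest and KI replicate 4 lowest, and the log2 difference was -0.27 (edgeR adjusted p = 0.808). It was -0.0046 without WT replicate 1 and -0.51 without WT replicate 3. Ccna2, the cyclin of S phase and early mitosis, had 0.521 ± 0.183 CPM in WT and 0.598 ± 0.153 CPM in KI. Foxm1, the transcription factor of this gene programme, had 14, 13 and 7 counts in WT and 5, 13, 14 and 19 counts in KI (log2 difference 0.23, SE 0.51).

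The mitotic kinases Aurka and Plk1 and the passenger protein Birc5 had log2 differences below 0, and none of these passed. Aurka, the centrosomal Aurora kinase that TPX2 activates, had 1.79, 1.75 and 1.87 CPM in WT and 1.52, 1.81, 1.55 and 1.22 CPM in KI. KI replicate 2 lay inside the WT range and the other KI libraries below it, with a log2 difference of -0.24 ± 0.19 (SE, edgeR adjusted p = 0.655). Plk1, the Polo-like kinase, had 10, 8 and 14 counts in WT and 12, 9, 10 and 9 counts in KI, a log2 difference of -0.02 whose sign turned without WT replicate 3 (0.14) or KI replicate 4 (0.043). Aurkb, the kinase of the chromosomal passenger complex, had 8, 10 and 7 counts in WT and 7, 7, 8 and 5 counts in KI and did not pass the filter. Birc5, another passenger protein, had a log2 difference of -0.21. Among the anaphase-promoting complex partners, Ube2c had 0.36 (edgeR adjusted p = 0.702) and Cdc20 had 0.01. Ube2c shares 22.8% of its exonic bases with the muscle gene Tnnc2 on the opposite strand. Tnnc2 had 7.68 CPM in KI replicate 1 and 0 counts elsewhere. Ube2c had 0.684 CPM in that library and 0.325 to 0.786 CPM in the others. Whether Tnnc2 reads were counted for Ube2c was not tested. The checkpoint kinase Bub1b had -0.09, and the checkpoint kinase Ttk had 6, 6 and 1 counts in WT and 8, 5, 7 and 3 counts in KI (log2 difference 0.43 without an expression filter). Transcripts of Ttk, Bub1, Cenpe and Cenpf stayed under 0.421 CPM in every library.

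Summed over all genes of each group, the genotypes overlapped, but the replication sum without Tk1 did not. The replication members summed to 137, 131.5 and 126 CPM in WT and 129.7, 129.6, 124 and 130.1 CPM in KI. Tk1 and Pcna weighed heavily in this sum, since Tk1 held 17.1% of it in WT and 10.6% in KI and Pcna 24.7% and 23.6%. Without Tk1 the sum was 109.2, 108.1 and 109.1 CPM in WT and 112.2, 120.2, 109.4 and 117.1 CPM in KI. Every KI library lay above every WT library there, with KI replicate 3 just above the highest WT library. Without Tk1 and Pcna it was 77.8, 77.03 and 74.3 CPM in WT and 80.2, 90.6, 81.4 and 85.4 CPM in KI, again with all KI libraries above WT. The genes left out were chosen after their values were seen, so these sums carry no test. The KI mean was below the WT mean with Tk1 in the sum and above it without. The mitosis members summed to 14.4, 12.2 and 11.3 CPM in WT and 15.0, 13.9, 14.2 and 10.9 CPM in KI, with KI replicate 4 the lowest of all libraries and KI replicate 1 the highest.

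The libraries differed among themselves in which genes they led. When each member's log2 CPM was centred on its mean and averaged over the replication members, WT lay at 0.0016, -0.09 and -0.13 and KI at 0.04, 0.16, -0.01 and 0.02. KI replicate 2 was the highest of the 7 libraries in 9 replication members and KI replicate 4 in 7. The same average over the mitosis members was 0.15, -0.11 and -0.24 in WT and 0.17, 0.05, 0.17 and -0.18 in KI. WT replicate 3 was the lowest of its genotype in 12 mitosis members and KI replicate 4 in 10.

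**Figure D4:**
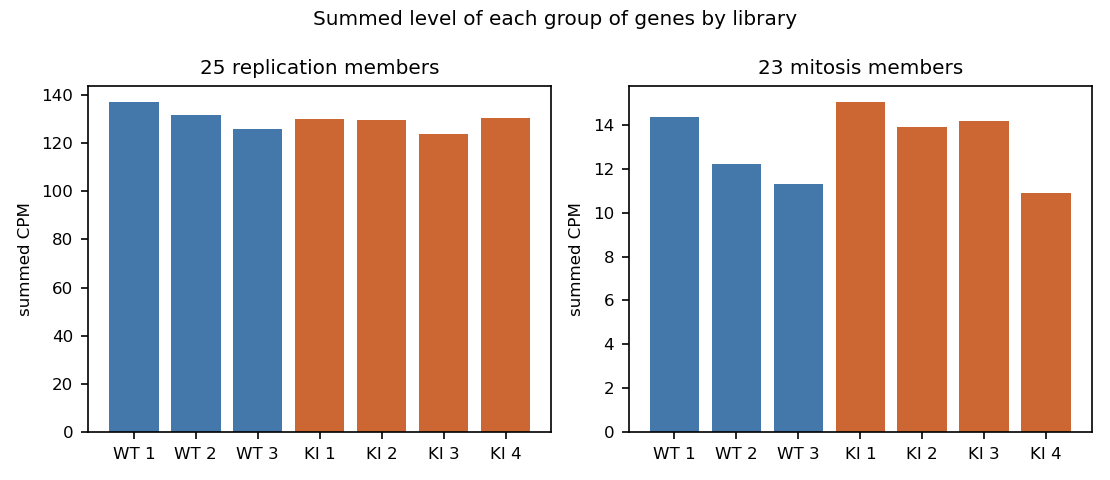
Summed CPM of the 25 replication members (left) and the 23 mitosis members (right) in each library, WT in blue and KI in orange. The replication sums lie between 124 and 137 CPM and the mitosis sums between 10.9 and 15.0 CPM, with the genotypes overlapping in both.

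Immune and blood cell types in the liver were followed by their own markers, which do not tell dividing cells from resting ones. Summed over 8 markers, Kupffer cells and macrophages stood at 267 to 349 CPM in WT and 207 to 265 CPM in KI. In this sum every KI library lay below every WT library, as held for 5.46% of all single genes tested. The edgeR test called 1 of the 8 markers, where 0.0357% of all genes tested were called. The sum does not describe each marker. Cd5l overlapped, with 81.9 to 113 CPM in WT and 100.8 CPM in KI replicate 3. T and NK cell markers stood at 3.17 to 4.37 CPM in WT and 3.07 to 7.60 CPM in KI. B and plasma cell markers stood at 9.93 to 12.2 CPM in WT and 11.5 to 15.8 CPM in KI, and neutrophil markers at 2.18 to 5.94 and 2.59 to 6.36 CPM. The erythroid list stood at 302 to 481 CPM in WT and 294 to 364 CPM in KI, but its defining marker Rhag was at 0 in all libraries. The part of these cells in the member values was not tested.

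Other genes of the same pathways, in 6 lists of 222 genes in all, were read in the same fit. Of the other replication genes, 49 of 56 in the table were tested, with 31 positive and a median log2 difference of 0.06. At an unadjusted p under 0.05, 1 was lower and 0 higher. All KI libraries lay above WT in 3 of the 49 and below it in 3, against 5.48% and 5.46% of all genes tested. Rpa3 was among those below, and Rpa1 and Pold2 among those above. Pold2 had 9.49 to 11.2 CPM in WT and 11.5 to 13.9 CPM in KI. Of the other mitosis genes, 62 of 82 were tested, with 39 positive and a median of 0.09. Of all genes tested, 50.1% were positive. At an unadjusted p under 0.05, 7 other mitosis genes were higher and 1 lower. In 6 of the 62 all KI libraries lay above WT and in 3 all below, against 5.48% and 5.46% of all genes tested. The edgeR quasi-likelihood test called 0 genes in these 6 lists, where 0.0357% of all genes tested were called. At an unadjusted p under 0.05 there were 16, where 5.6% of all genes tested were higher and 4.97% lower. DESeq2 and edgeR without a filter each called 1 gene of the lists, Ccng1, and limma-voom called 0. Over all their genes these called 1.36%, 0.0856% and 0.05%.

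The mitosis gene with the smallest p was Spag5, which encodes a spindle protein (astrin). It had 0.143, 0.175 and 0.208 CPM in WT and 0.508, 0.603, 0.507 and 0.4002 CPM in KI. All KI libraries lay above all WT libraries, from 6 to 10 counts in WT and 17 to 23 in KI. The log2 difference was 1.501 ± 0.32 (SE, edgeR adjusted p = 0.222). Such a separation upward held in 5.48% of all genes tested, and Spag5, Ncapg2 and Psrc1 were named for their small p. Ncapg2, a condensin II subunit, had 0.762, 1.05 and 0.956 CPM in WT and 1.48, 1.55, 2.05 and 1.48 CPM in KI, again without overlap (log2 difference 0.83, edgeR adjusted p = 0.276). Psrc1, a microtubule-binding protein, had 3, 11 and 3 counts in WT and 16, 15, 30 and 27 counts in KI, a log2 difference of 1.99 ± 0.57 (SE, edgeR adjusted p = 0.314).

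A further list covered the entry into S phase, with cyclin D, CDK inhibitors and RB with E2F. Of its 38 genes tested, 26 were positive, where 50.1% of all genes tested were. At an unadjusted p under 0.05, 4 were higher and 0 lower, where 5.6% of all genes tested were higher and 4.97% lower. Cdkn1a, which encodes the CDK inhibitor p21, had 1.36, 4.09 and 17.3 CPM in WT and 16.6, 29.3, 16.02 and 20.1 CPM in KI. WT replicate 3 lay among the KI libraries (edgeR adjusted p = 0.496). Cyclin D1 (Ccnd1) had 32.9, 41.8 and 41.8 CPM in WT and 43.4, 75.4, 56.4 and 40.5 CPM in KI, with KI replicate 4 below the highest WT libraries (log2 difference 0.47, edgeR adjusted p = 0.473). Tfdp1, the dimer partner of E2F, had 17.7, 13.7 and 13.4 CPM in WT and 20.6, 23.1, 20.3 and 16.6 CPM in KI (log2 difference 0.43, edgeR adjusted p = 0.346). KI replicate 4 lay below WT replicate 1. The repressive E2F7 had 10, 5 and 9 counts in WT and 23, 31, 13 and 10 counts in KI (log2 difference 1.34, edgeR adjusted p = 0.3998). Its relative E2f8, which with E2F7 acts in hepatocyte polyploidy in mice, had 4.43, 6.44 and 11.7 CPM in WT and 5.47, 5.01, 9.78 and 10.97 CPM in KI. The activator E2f1 had a log2 difference of 0.08. The list also held Ccng1, which encodes cyclin G1, a cyclin other than cyclin D, so its values are not a reading of that entry. Ccng1 had 28.3 to 32.1 CPM in WT and 44.3 to 53.1 CPM in KI. Its log2 difference was 0.72 (edgeR adjusted p = 0.0592, DESeq2 adjusted p = 4.2e-08). In the authors' deposited table Ccng1 also passed, with a log2 fold change of 0.72 and a corrected p of 0.0044, where 0.633% of genes passed.

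The lists for the anaphase-promoting complex, cohesin and the replication stress checkpoint had median log2 differences of 0.07, 0.01 and 0.02, with 8 of 15, 8 of 13 and 8 of 15 genes tested positive. Of all genes tested, 50.1% were positive. At an unadjusted p under 0.05 there were 2 higher and 1 lower in these 3 lists, where 5.6% of all genes tested were higher and 4.97% lower. Anapc15, a subunit that helps release the spindle checkpoint, had 7.76, 8.09 and 8.57 CPM in WT and 6.80, 5.98, 6.89 and 6.90 CPM in KI. Every KI library lay below every WT library (log2 difference -0.29, edgeR adjusted p = 0.376). Anapc1 lay the other way, with 30.9 to 32.2 CPM in WT and 33.2 to 36.6 CPM in KI (log2 difference 0.17, edgeR adjusted p = 0.445). Of 15 subunits tested, 3 had all KI libraries above WT and 2 all below, against 5.48% and 5.46% of all genes tested. Esco2, the acetyltransferase that locks cohesin in S phase, had 1.33, 0.924 and 0.561 CPM in WT and 1.79, 0.813, 2.03 and 1.46 CPM in KI, with KI replicate 2 inside the WT range (log2 difference 0.70). Atr, the kinase that senses stalled forks, had 9.91, 7.11 and 7.32 CPM in WT and 8.43, 14.1, 11.8 and 12.2 CPM in KI. KI replicate 1 lay inside the WT range and the other KI libraries above it, with a log2 difference of 0.52 (edgeR adjusted p = 0.392).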

How the data were processed

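RNA was sequenced from liver after oligo(dT) enrichment, with second strands made from ordinary dNTPs and so without strand marking, per the labels' protocols. The submitters' processing notes give the build mm10 (mapper, counter, annotation release: not given in the sources used here). All counts are whole-number total counts per gene and library as the authors deposited them, per the file headers. The TPM values are also the authors' deposited values and were used only to compare levels between genes. The authors' deposited table gives other columns, a log2 fold change and a corrected p, by a program not given in the sources used here. A further 14 columns (RPKM and CPM) were not used.

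Of 51826 genes, 21027 had at least 1 count. Total counts per library ran from 36928472 to 46755357, and the number of counts of a gene limits its precision. The test was edgeR 4.0.16 under R 4.3.3 (TMM scaling, the default expression filter, quasi-likelihood F test, genotype as the only term) over 13989 genes, and calls needed a Benjamini-Hochberg adjusted p below 0.05. The SE of a log2 difference is the difference divided by the square root of F, and 95% intervals are per gene and unadjusted. CPM is scaled by library, and log2 CPM has a prior count of 2. DESeq2 1.42.0, limma-voom (limma 3.58.1), other scalings and filters, a replicate block and leaving out each library were alternatives. Fits were tested on simulated data.

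Of the members, the rule named the 8 with the smallest p in each group and a fixed list of 15 cell cycle genes, 26 in all. From each of 6 pathway lists it named the 3 with the smallest p, with Cdkn1a, Ccnd1, E2f1, E2f7, E2f8 and Top2a, and it named Sprtn. Other genes, Afmid, Tnnc2, Tk2 and Ccnb2 among them, were named after their values were seen. The members and lists were chosen with earlier results of these data known. Exon sharing was taken from GENCODE M21, by which 17 members share exonic bases with another gene and 8 share over 10%. These 8 are Fen1, Gins2, Kif20a, Ube2c, Ccne2, Rfc4, Ccna2 and Prc1, whose counts are uncertain to that extent. No pairing by replicate number was visible. Same-number correlations of deviations ran from -0.06 to 0.01, and those of other pairs from -0.24 to 0.26. Such correlations cannot exclude a pairing that the labels do not state.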

Additional observations from a re-analysis of the deposited data

Results flagged for a closer look

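A KI library stood far from the other 3 in 7 of 51 sets of 4 KI values examined, where chance flags about 1 in 20. That rate holds for independent, normally distributed values. These sets share libraries and hold genes named for a small p, so the count carries no test. KI replicate 4 was far above the others for Mcm6, at 5.81 CPM, and far below them for Rpa2, at 4.71 CPM, and for Cdt1, at 2.35 CPM. KI replicate 2 was far above the others for Mcm2, at 5.51 CPM, and far below them for Anapc15, at 5.98 CPM. KI replicate 3 was far above the others for Ncapg2, at 2.05 CPM, and far below them for the summed replication members, at 124 CPM.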

How the results depend on the processing

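Depth limits the mitosis members most, with 1 to 90 counts per library. The number of members called was 0 under each of the 15 alternatives run. Over all genes, edgeR called 5, and DESeq2 called 208 and edgeR without a filter 18. Leaving out 1 library gave 3 to 98 calls, with 98 without WT replicate 1 and 3 without KI replicate 1 or KI replicate 4. With the replicate block, edgeR called 0 genes (1178 at an unadjusted p under 0.05), although no pairing by number was visible. Of the pathway genes 1 was called by DESeq2 and by edgeR without a filter, and 0 to 1 with 1 library left out (Ccng1, without WT replicate 1). The median log2 difference was 0.10 to 0.19 for replication members with 1 library left out. For mitosis members it was 0.0060 (without WT replicate 3) to 0.30, and -0.24 when 3 or more libraries had to reach 1 CPM, which only 3 of them did. Signs turned in 22 of 707 gene results. Upper-quartile scaling gave -0.0047 for Tyms, and the replicate block gave -0.062 for Tyms, -0.028 for Foxm1, 0.054 for Plk1 and -0.11 for E2f8. With 1 library left out, log2 differences ran from -0.16 to 0.93 for Ccne2, -0.062 to 0.042 for Tyms, -0.013 to 0.49 for Ccna2, -0.077 to 0.52 for Foxm1, -0.13 to 0.14 for Plk1, -0.17 to 0.041 for Top2a, -0.046 to 0.31 for E2f1 and -0.22 to 0.53 for E2f8. The cause was not tested.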
